A study of Mus musculus with 50 samples.

Results

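Spinal motor neurons were described here through 9 genes of the MHC class I and interferon pathways: the class I heavy chain genes H2-D1 and H2-K1, B2m for their shared light chain, the class I transactivator Nlrc5, the interferon signalling factors Stat2 and Irf9, and the interferon-stimulated genes Ifit3, Isg15 and Bst2. They were taken by symbol from the 55385 genes of the deposited gene tables, and all 9 were found once in each of 28 RNA libraries. In vivo, motor neurons were profiled at E10.5 (n = 3), E13.5 (n = 2), P4 (n = 3), P13 (n = 2), P21 (n = 3), P56 (n = 3) and 2 years (n = 2). E10.5 samples were whole GFP-positive cells sorted from embryos of the HB9-GFP line, in which the promoter of the motor neuron factor HB9 drives GFP. From E13.5 on, nuclei tagged at the nuclear envelope by SUN1-GFP were pulled down (INTACT) from Chat-Cre;SUN1-GFP mice, in which Cre is expressed in cholinergic neurons, so that other cholinergic spinal neurons are also tagged. Each tissue sample pooled several animals. In vitro, motor neurons were made from an embryonic stem cell line of the same Chat-Cre;SUN1-GFP genotype and their nuclei were collected before co-culture (DIV0, n = 2), after 7 days (DIV7, n = 2) and 28 days (DIV28, n = 3) on glia enriched for cortical astrocytes, and after 28 days with 1 µM tetrodotoxin (TTX), a sodium channel blocker that silences action potentials (DIV28 + TTX, n = 3). Chromatin accessibility (ATAC-seq) was measured in 2 libraries of each of the same 11 groups.

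MHC class I molecules carry peptides from inside the cell to its surface, where CD8 T cells read them. A heavy chain (H2-D1 or H2-K1) pairs with B2m for this, and Nlrc5 activates the transcription of all of them. Interferon binding to its receptor brings Stat2 and Irf9 together in a complex called ISGF3, which enters the nucleus and activates genes such as Ifit3, Isg15 and Bst2, whose products act against viruses. In neurons, class I genes are known as low in the resting state, inducible by interferon, and present at synapses of some classes, motor neurons among them.

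The DNA that ISGF3 and related factors bind is the interferon-stimulated response element. Its core was searched as GAAANNGAAA, a shorter form used by class I genes as GAANNGAAA, and a kappa B site as GGGATTCCC, each on both strands, in the 250 bases before the start site of 27025 genes (RefSeq, GRCm38.p6). These held a match in 3.04%, 6.34% and 0.311% of the promoters. The 4 promoters below are printed 5′ to 3′ on the strand of their gene because the results turn on these genes and they show the arrangements found, with the matched letters in capitals. They lie at chr17:35262844-35263093 (+) for H2-D1, chr17:34000348-34000597 (-) for H2-K1, chr2:122147437-122147686 (+) for B2m and chr19:34583279-34583528 (+) for Ifit3.
H2-D1: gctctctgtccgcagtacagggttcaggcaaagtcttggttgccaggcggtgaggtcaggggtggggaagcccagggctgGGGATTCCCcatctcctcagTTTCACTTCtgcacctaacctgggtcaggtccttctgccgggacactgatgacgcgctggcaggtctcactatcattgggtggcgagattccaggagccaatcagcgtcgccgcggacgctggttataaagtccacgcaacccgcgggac
H2-K1: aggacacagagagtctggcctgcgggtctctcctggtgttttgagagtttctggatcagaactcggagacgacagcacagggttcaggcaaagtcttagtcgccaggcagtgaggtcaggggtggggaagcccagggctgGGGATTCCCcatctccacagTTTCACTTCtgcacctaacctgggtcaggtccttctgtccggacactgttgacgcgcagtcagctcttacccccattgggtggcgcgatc
B2m: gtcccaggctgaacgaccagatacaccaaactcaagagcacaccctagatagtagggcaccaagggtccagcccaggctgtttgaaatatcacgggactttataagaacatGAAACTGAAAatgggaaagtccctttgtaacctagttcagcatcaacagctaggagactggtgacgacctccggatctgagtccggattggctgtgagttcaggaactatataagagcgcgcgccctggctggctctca
Ifit3: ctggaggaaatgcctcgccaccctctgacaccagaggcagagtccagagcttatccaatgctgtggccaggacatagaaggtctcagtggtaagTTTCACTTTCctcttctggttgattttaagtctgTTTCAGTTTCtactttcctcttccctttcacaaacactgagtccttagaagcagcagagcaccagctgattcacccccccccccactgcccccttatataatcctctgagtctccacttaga
H2-D1 and H2-K1 each held the kappa B letters 20 bases ahead of the shorter form, which began 150 bases upstream of the start site in H2-D1 and 90 in H2-K1. B2m held 1 response element, 139 bases upstream, and Ifit3 held 2, at 156 and 122 bases. Of the promoters not printed, Stat2 had 1 response element at 222 bases, overlapped by a shorter form at 216 bases, Isg15 had 3 overlapping ones at 78, 72 and 66 bases and a shorter form at 128 bases, and Bst2 had 2 overlapping ones at 130 and 124 bases. Irf9 held none of these letters in the window. Nlrc5 was not in the promoter table. A match is a string of letters and no evidence of binding. On mm10 (GENCODE vM21) both heavy chain genes lie on chromosome 17, H2-D1 at chr17:35262730-35267499 and H2-K1 at chr17:33996017-34000347, and B2m lies at chr2:122147686-122153083. Stat2 is at chr10:128270559-128292849, Irf9 at chr14:55603571-55610030, Ifit3 at chr19:34583531-34588731, Isg15 at chr4:156199424-156200818, and Nlrc5 and Bst2 are at chr8:94434356-94527272 and chr8:71534255-71537456.

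Total expected counts per library ranged from 2704682 to 21823500 (median 4292675). Levels are given as normalised counts, that is, expected counts divided by 1 size factor per library, which compare libraries but not genes. The library titled DIV0 replicate 3 was placed in DIV28 as its replicate 3. Across 14201 genes it correlated at 0.929 and 0.931 with the other DIV28 libraries and at 0.698 and 0.700 with the DIV0 libraries (Pearson's r of log2 levels, a description), and the comparisons that use it are also given without it. Motor neuron markers (Chat, Slc5a7, Slc18a3, Isl1, Mnx1) were all above 0 in every library. Markers of other cells were also present, among them blood vessel markers at E13.5 and P4 and oligodendrocyte markers from P4 on. The summed count of 8 endothelial genes was 8.40 to 33.2 at E10.5, 13910.0 to 26170.0 at E13.5, 5882 to 8069 at P4, 382 to 568 at P13, and 39.2 to 90.0 at P21, and that of 4 pericyte genes was 2142 to 2184 at E13.5 and 3119 to 4692 at P4 against 26.6 to 74.5 at P21. All 8 endothelial markers were above 0 at E13.5 and P4. The 6 oligodendrocyte markers summed to 10590.0 to 10730.0 at P13 and 5977 to 8145 at P21. Lymphocyte markers (7 genes) summed to at most 22.96 in any library and were all at 0 at P21 and 2 years. In these bulk samples fewer cells of a type and less RNA per cell cannot be told apart.

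**Figure D1:**
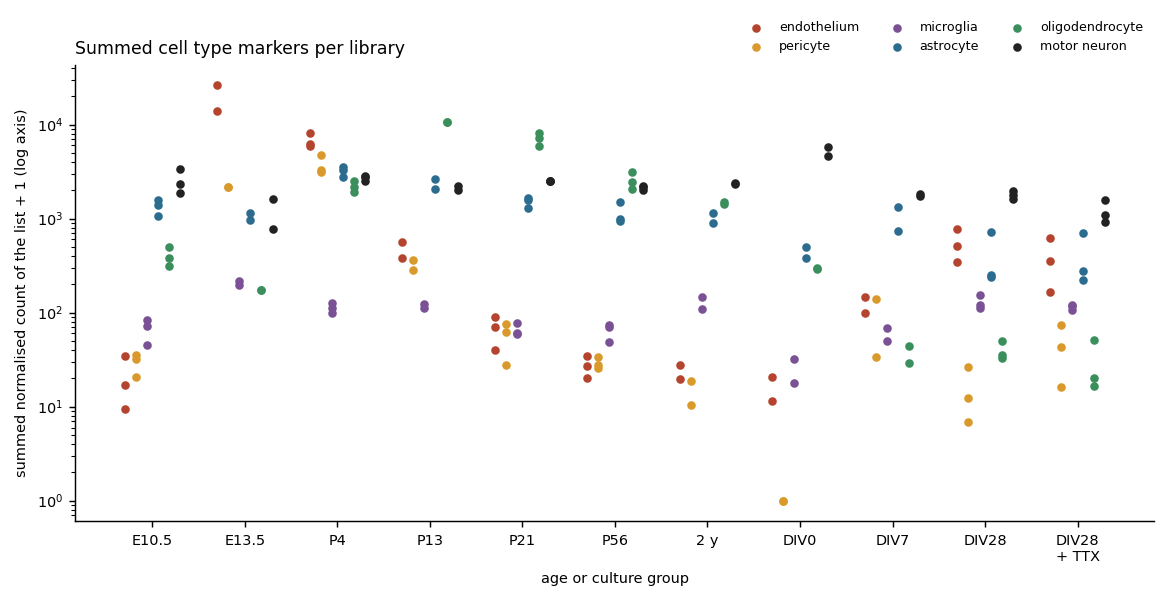
Summed normalised count (+ 1, log axis) of marker genes for 6 cell types in each RNA library, by age or culture group, with 1 point per library. Endothelial markers stand at 13910.0 to 26170.0 at E13.5 and at 39.2 to 90.0 at P21, while motor neuron markers are at 767 or more in all 28 libraries.

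The 9 genes differed widely in level. Compared per transcript length (TPM, mean ± SD), E10.5 motor neurons held most H2-K1 (29.6 ± 12.6, n = 3), H2-D1 (20.5 ± 2.63) and B2m (19.9 ± 6.40). At E13.5 B2m led with 57.1 ± 18.9 TPM (n = 2). At P21 and P56 the signalling factors had the highest means. At P21 Irf9 stood at 9.43 ± 0.685 and Stat2 at 8.45 ± 2.58 TPM, ahead of H2-D1 at 4.82 ± 0.412, B2m at 1.39 ± 0.833 and H2-K1 at 0.95 ± 0.243 (n = 3). At 2 years the mean of H2-D1 (6.62 ± 3.55) lay between those of Stat2 (8.19 ± 3.42) and Irf9 (4.42 ± 1.88, n = 2). In DIV28 cultures H2-K1 (8.66 ± 2.87), H2-D1 (7.67 ± 2.19), B2m (5.78 ± 2.19) and Stat2 (5.41 ± 2.07) overlapped in their spread (n = 3). Nlrc5, Ifit3 and Isg15 had means under 1 TPM at P4, P13, P21, P56 and 2 years.

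**Figure D2:**
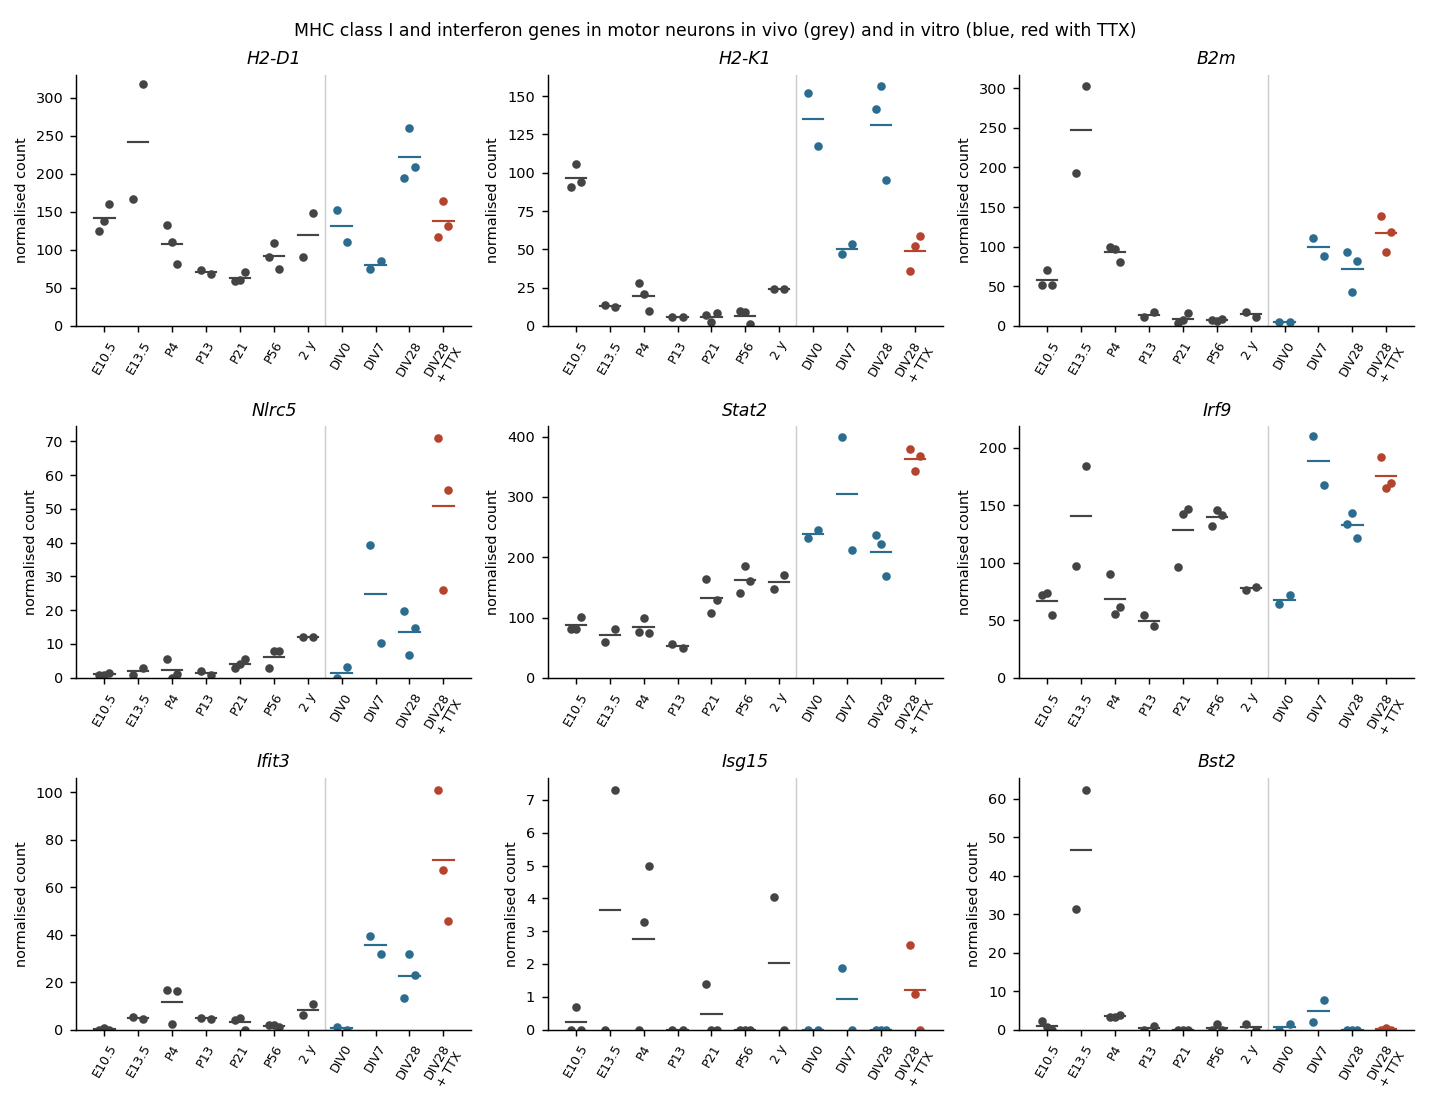
Normalised count of each of the 9 genes (1 panel each, own vertical axis) in every RNA library by age or culture group, with points for libraries and bars for group means. B2m runs from 193 and 302 at E13.5 to under 18 in every library from P13 on in vivo, whereas Stat2 is higher in all libraries from P21 on than in the libraries of P13.

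The first question was how these genes moved as motor neurons aged in tissue. H2-D1 and B2m were lower at P21 than in the embryo, H2-K1 was high only at E10.5, and Stat2 and Irf9 were higher at P21 than at P13. A gene was called changed at an unadjusted p under 0.001 and a difference of at least 2-fold (edgeR's quasi-likelihood test, 15030 genes), and adjusted p-values are Benjamini-Hochberg values over all genes of a fit. Of the 9 genes, 6 reached 5 CPM in every library of at least 1 age and were tested. H2-K1 passed this filter through E10.5 alone, Bst2 through E13.5 alone, and B2m only through E10.5, E13.5 and P4, where it was high. Counts over the tested genes therefore describe them and support nothing. Nlrc5, Ifit3 and Isg15 did not pass in tissue.

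H2-D1 encodes a heavy chain of class I. Its normalised counts were 125, 138 and 161 at E10.5, 167 and 318 at E13.5, 132, 110.3 and 81.0 at P4, 74.1 and 67.8 at P13, 58.7, 60.2 and 70.5 at P21 and 90.7, 108 and 75.2 at P56. The libraries of P13 and P21 lay below all of those from E10.5 to P4. No single step was called, with the largest fall from E13.5 to P4 at -1.03 ± 0.27 on the log2 scale (adjusted p = 0.0029). The comparison of E10.5 with P21, added after the data were seen because both lie outside the ages with vessel markers, gave a called fall of log2 -1.16 ± 0.27 (adjusted p = 0.00071), beside 65.3% of all genes called in either direction. That call was lost on leaving out E10.5 replicate 3 or any 1 of the 3 P21 libraries, with values from -1.04 to -1.24. Whole cells were used at E10.5 and nuclei at P21, from different mouse lines. Thoracic cord was included at E10.5 but not in the RNA samples of later ages. For every gene, age, preparation, line and cord region cannot be told apart in this comparison. The 6 oligodendrocyte markers summed to 315.2 to 496.5 at E10.5 and 5977 to 8145 at P21, and their part was not tested.

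H2-K1 encodes the other heavy chain. Its counts were 90.8, 106 and 93.7 at E10.5 and 13.8 and 12.4 at E13.5, then 28.0, 20.7 and 9.98 at P4, 5.66 and 5.57 at P13, 6.99, 2.81 and 8.29 at P21 and 9.62, 9.38 and 1.32 at P56. All 3 E10.5 libraries exceeded every later tissue library. From E10.5 to E13.5 it fell by 3.03 ± 0.42 on the log2 scale (adjusted p = 5.2e-06), and from E10.5 to P21 by 3.98 ± 0.44 (adjusted p = 1.4e-07). The ratio of H2-D1 to H2-K1 counts within a library was 1.3 to 1.71 at E10.5 and 12.1 and 25.5 at E13.5. The non-classical class I gene H2-Q7 went the same way, from a mean of 73.0 at E10.5 to 3.81 at E13.5. Whole cells against nuclei, HB9-GFP against Chat-Cre;SUN1-GFP mice, cord region and age cannot be told apart in this step or from E10.5 to P21. Class I genes are near copies of each other and vary between mouse strains, so how the authors' counting split their reads is uncertain.

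B2m, the light chain gene, peaked at E13.5. Its counts were 51.9, 71.2 and 51.1 at E10.5, 193 and 302 at E13.5, 99.8, 97.2 and 81.1 at P4, 10.8 and 17.6 at P13, 4.20, 7.03 and 16.6 at P21 and 6.88, 6.70 and 9.24 at P56. Both E13.5 libraries were above all others, and every library from P13 on was below all of those before. It rose from E10.5 to E13.5 (log2 1.95 ± 0.28, adjusted p = 6.8e-06), fell to P4 (-1.27 ± 0.27, adjusted p = 0.00052) and fell again to P13 (-2.66 ± 0.35, adjusted p = 2.4e-05). The endothelial sum moved with it over E10.5, E13.5, P4 and P13, and its part in these steps was not tested. Between E10.5 and P21, where the endothelial sums were 8.40 to 33.2 and 39.2 to 90.0, B2m fell by 2.63 ± 0.36 (adjusted p = 2.4e-06), and by 2.66 in a fit without the E13.5 and P4 libraries. Preparation, mouse line and cord region also differed between E10.5 and P21. The fall from E13.5 to P4 was not called without E13.5 replicate 2 (-0.90) or P4 replicate 3 (-1.19).

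Stat2 and Irf9, which act together in ISGF3, took another course. Stat2 counts were 80.2, 80.9 and 101 at E10.5, 60.02 and 80.7 at E13.5, 76.3, 99.3 and 74.9 at P4, 56.6 and 49.2 at P13, 164, 107 and 128 at P21 and 140.2, 185 and 161 at P56. In normalised counts all P21 and P56 libraries stood above all earlier ones. In TPM, P21 replicate 2 (6.07) lay below all E10.5 libraries (6.85 to 8.75). From P13 to P21 Stat2 rose by log2 1.23 ± 0.24 (adjusted p = 0.0014). Irf9 counts were 54.6 and 44.6 at P13 and 96.5, 142 and 146 at P21, a rise of 1.27 ± 0.28 (adjusted p = 0.0041), after 71.8, 74.0 and 54.9 at E10.5, 97.0 and 184 at E13.5 and 89.7, 55.7 and 61.1 at P4. Its P56 libraries (132, 146 and 141) overlapped those of P21. Without P13 replicate 2 neither rise was called, and the Irf9 rise was also not called without P13 replicate 1 or P21 replicates 2 or 3 (1.16 to 1.46). From E10.5 to P21 neither was called, at 0.61 ± 0.20 for Stat2 and 0.94 ± 0.25 for Irf9 (adjusted p = 0.01 and 0.0018). Irf9 overlaps Rnf31 on the same strand, and Rnf31 stood at a mean of 96.2 at P13 and 187 at P21, so reads in the overlap could belong to either gene.

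The interferon-stimulated members had low counts in tissue, apart from Bst2 at E13.5. Bst2, or tetherin, holds budding viruses at the membrane, and its counts were 2.29, 0.691 and 0 at E10.5, 31.4 and 62.2 at E13.5, 3.37, 3.27 and 3.74 at P4 and at most 1.34 in any library from P13 on. Its E13.5 libraries exceeded all others by far, 53.3 times the E10.5 level over 179 against 4 counts (95% counting interval 20.5 to 198). Against P21, where no read was found, the difference was at least 37.6-fold (floor of 3 counts over the group). The rise into E13.5 was called (adjusted p = 5e-06), as was the fall to P4 of log2 -3.60 ± 0.62 (adjusted p = 9.2e-05), which was not called without E13.5 replicate 2 (-2.99). The endothelial sum moved with Bst2, and its part was not tested. Ifit3, of a family that binds viral RNA and its translation machinery, had 0, 0.691 and 0 counts at E10.5, 5.38 and 4.52 at E13.5, 16.8, 2.26 and 16.2 at P4 and 4.20, 4.99 and 0 at P21. Isg15, a ubiquitin-like modifier, reached 7.29 counts in 1 E13.5 library and at most 5 in any other, and Nlrc5 did not exceed 8.04 counts at any age up to P56.

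The calls per step were set beside the share of all genes called. From E10.5 to E13.5, 3 of the 6 tested members were called (H2-K1, B2m, Bst2) against 44.1% of all genes, and from E13.5 to P4 2 (B2m, Bst2) against 42.7%, both near the background. From P4 to P13 only B2m was called (13.3% of all genes), and from P13 to P21 Stat2 and Irf9 were (7.3%). From P21 to P56 none was called (0.173%, with 26 genes called in all). Counting at these levels was coarse, since a normalised count of 5 rests on a few reads.

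The oldest motor neurons were compared next. At 2 years H2-K1 stood at 24.2 and 23.9, above all 6 libraries of P21 (6.99, 2.81 and 8.29) and P56 (9.62, 9.38 and 1.32). Against P21 and P56 together it was higher by log2 1.97 ± 0.42 (edgeR, adjusted p = 0.022), 1 called member of 6 where 1.04% of all genes were called. Without 2 years replicate 2 the difference was 1.92 and not called. Against P56 alone it was 1.90 ± 0.50 (adjusted p = 0.1), and no member was called (0.685% of all genes). H2-D1 was 90.1 and 148 at 2 years, in 1 library within the P56 range and in the other above it (0.76 ± 0.25, adjusted p = 0.17). B2m was 17.5 and 11.4 (0.77 ± 0.40, adjusted p = 0.41) and Stat2 146 and 171 (0.20 ± 0.19), both overlapping the younger adults. Irf9 was 76.6 and 79.1, below all P21 and P56 libraries (-0.70 ± 0.25, adjusted p = 0.2), which did not pass. Nlrc5 was 12.1 and 11.97, in normalised counts above all younger tissue libraries but below the count filter, and Ifit3 was 6.20 and 10.6. In TPM, Nlrc5 was 0.39 and 0.55 at 2 years against 1.03 in P56 replicate 2 and 0.47 in P21 replicate 2. The summed count of 10 microglial markers was 109 to 145 at 2 years against 58.7 to 77.4 at P21 and 48.1 to 72.3 at P56, with all 10 above 0 at 2 years. The part of microglial RNA in the H2-K1 difference was not tested.

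In culture the question was whether motor neurons that mature outside the animal follow the same course. The 10 in vitro libraries were fitted together over 12890 genes, and 6 of the 9 genes passed the filter (not Nlrc5, Isg15 or Bst2), Ifit3 through DIV7 and DIV28 + TTX alone. B2m rose with co-culture. In normalised counts H2-K1 stayed above every library of tissue nuclei, and H2-D1 rose between DIV7 and DIV28. In TPM, H2-K1 was 7.5 in P4 replicate 1, above DIV7 replicate 1 (5.53) and DIV28 replicate 3 (5.36). B2m was 5.23 and 4.59 at DIV0, 111 and 88.0 at DIV7 and 92.7, 42.3 and 81.7 at DIV28, a rise of log2 4.31 ± 0.56 from DIV0 to DIV7 (adjusted p = 0.00026). H2-K1 was 152 and 118 at DIV0, 46.9 and 53.6 at DIV7 and 141, 156 and 95.5 at DIV28, lowest in both DIV7 libraries, though neither step was called (-1.42 ± 0.38, adjusted p = 0.019, and 1.40 ± 0.35, adjusted p = 0.019). H2-D1 was 152 and 110.1, 75.0 and 85.5 and 194, 261 and 209 at the same times, and rose by 1.49 ± 0.29 from DIV7 to DIV28 (adjusted p = 0.006). Without the library titled DIV0 replicate 3 this was 1.53 and still called, but without either DIV7 library or DIV28 replicate 2 it was 1.35 to 1.58 and not called. The step also depended on the scale. In TPM, H2-D1 was 6.34 ± 1.11 at DIV7 and 7.67 ± 2.19 at DIV28, and H2-K1 was 9.51 ± 5.63 and 8.66 ± 2.87 (mean ± SD, n = 2 and 3), so that the H2-D1 difference was small and the H2-K1 difference had the opposite sign.

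Among the interferon genes, Irf9 went from 64.0 and 71.8 at DIV0 to 210.1 and 167 at DIV7 (log2 1.48 ± 0.29, adjusted p = 0.0034) and stood at 133, 143 and 121 at DIV28. This rise was not called without DIV0 replicate 1 or 2 or DIV7 replicate 1 (1.28 to 1.54), and Rnf31, which overlaps it, stood at means of 147 and 306. Ifit3 went from 1.31 and 0 to 39.5 and 31.9, a ratio of 49.6 over 46 against 1 count (95% counting interval 8.46 to 2000, adjusted p = 0.0021), and stood at 13.3, 32.0 and 22.9 at DIV28. It was not called without DIV0 replicate 2. Stat2 was 231 and 245 at DIV0, 399.5 and 212 at DIV7 and 238, 222 and 168 at DIV28, overlapping throughout. Nlrc5 was 0 and 3.06, 39.4 and 10.2 and 19.7, 6.78 and 14.6, with a DIV7 to DIV0 ratio of 15.6 over 29 against 2 counts (3.95 to 135) and no test past the filter. From DIV0 to DIV7 3 of 6 tested members were called against 11.2% of all genes, and from DIV7 to DIV28 1 of 6 against 7.7%. Since Ifit3 and B2m passed the filter only through groups after DIV0, where they were high, the first count is a description and supports nothing. Markers of other cells moved as well. The 6 astrocyte markers summed to 376 to 498 at DIV0, 733 to 1337 at DIV7 and 236 to 717 at DIV28, Aqp4 was at 0 in both DIV0 libraries and at a mean of 119 at DIV7, and 8 endothelial markers summed to 10.4 to 19.9, 98.2 to 146 and 340.5 to 782. The part of glial RNA in these rises was not tested.

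TTX was added to ask what electrical activity does. In normalised counts, cultures with TTX had less of both heavy chain genes and more of Stat2, Nlrc5 and Ifit3 in every one of the 3 parallel pairs. Of these only the H2-K1 difference was called. H2-K1 was 141, 156 and 95.5 without and 36.1, 52.1 and 58.4 with TTX, so that all treated cultures lay below all untreated ones. The fall was log2 -1.45 ± 0.30 (adjusted p = 0.088, edgeR), past the limit on the unadjusted p but not past 0.05 once adjusted. It was 1 of 6 tested members where 0.683% of all genes were called. Treated and untreated cultures of the same number were grown in parallel. With the pair as a block in the fit the H2-K1 fall was -1.44 ± 0.26 (adjusted p = 0.011), again the only member called (1.98% of all genes). Without the library titled DIV0 replicate 3 it was -1.64 and still called. Without DIV28 replicate 1 or 2, or TTX replicate 1 or 2, the unpaired difference was -1.26 to -1.51 and not called.

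H2-D1 was 194, 261 and 209 without and 117, 164 and 131 with TTX, again without overlap. The difference of -0.71 ± 0.24 was under 2-fold (adjusted p = 0.41, and 0.044 with the block). The 2 heavy chain genes together summed to 336, 417 and 305 counts without and 153, 216 and 189 with TTX. B2m, by contrast, was 92.7, 42.3 and 81.7 without and 139, 93.4 and 119 with TTX, higher in each pair (0.69 ± 0.34, adjusted p = 0.68, and 0.095 with the block). Stat2 was 238, 222 and 168 without and 380.1, 343 and 367 with TTX, with no overlap (0.77 ± 0.25, adjusted p = 0.37, and 0.052 with the block). Irf9 was 133, 143 and 121 and 192, 165 and 169 (0.38 ± 0.22, adjusted p = 0.79), while Rnf31, which overlaps it, went from a mean of 110 to 191. In TPM, H2-D1 and Stat2 moved the same way in each pair, but treated and untreated libraries overlapped.

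Nlrc5 was 19.7, 6.78 and 14.6 without and 70.9, 26.1 and 55.5 with TTX, and Ifit3 13.3, 32.0 and 22.9 without and 101, 67.2 and 45.9 with it. In normalised counts all treated cultures exceeded all untreated ones in both genes. In TPM, Nlrc5 was 0.67, 0.39 and 0.43 without and 1.23, 0.32 and 1.58 with TTX, so that pair 2 went the other way. Ifit3 differed by 1.60 ± 0.48 (adjusted p = 0.28, and 0.057 with the block) and was not called. With the block and no filter on low counts, a setting added after the data were seen, 1.87% of genes were called and the calls among the 9 genes were H2-K1 (-1.47 ± 0.27, adjusted p = 9.2e-06), Nlrc5 (1.84 ± 0.50, adjusted p = 0.0089) and Ifit3 (1.53 ± 0.41, adjusted p = 0.0082). Isg15 and Bst2 were at or near 0 in all 6 libraries. Beside these differences the 6 astrocyte markers summed to 236 to 717 without and 220.3 to 699 with TTX, the 8 endothelial markers to 340.5 to 782 and 165 to 618, the 4 pericyte markers to 5.83 to 25.5 and 15.1 to 73.4, the 10 microglial markers to 111 to 153 and 106 to 119.8, and the 5 motor neuron markers to 1634 to 1987 and 909 to 1564. The pericyte sum was higher with TTX in all 3 pairs (25.5 to 73.4, 11.3 to 42.3 and 5.83 to 15.1), the same direction as B2m, Stat2, Nlrc5 and Ifit3. The motor neuron sum was lower with TTX in all 3 pairs (1987 to 1564, 1782 to 1084 and 1634 to 909), the same direction as H2-D1 and H2-K1. So was the endothelial sum (782 to 618, 513 to 356 and 340.5 to 165). Astrocyte and microglial sums moved both ways. The part of cell makeup in these differences was not tested.

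**Figure D3:**
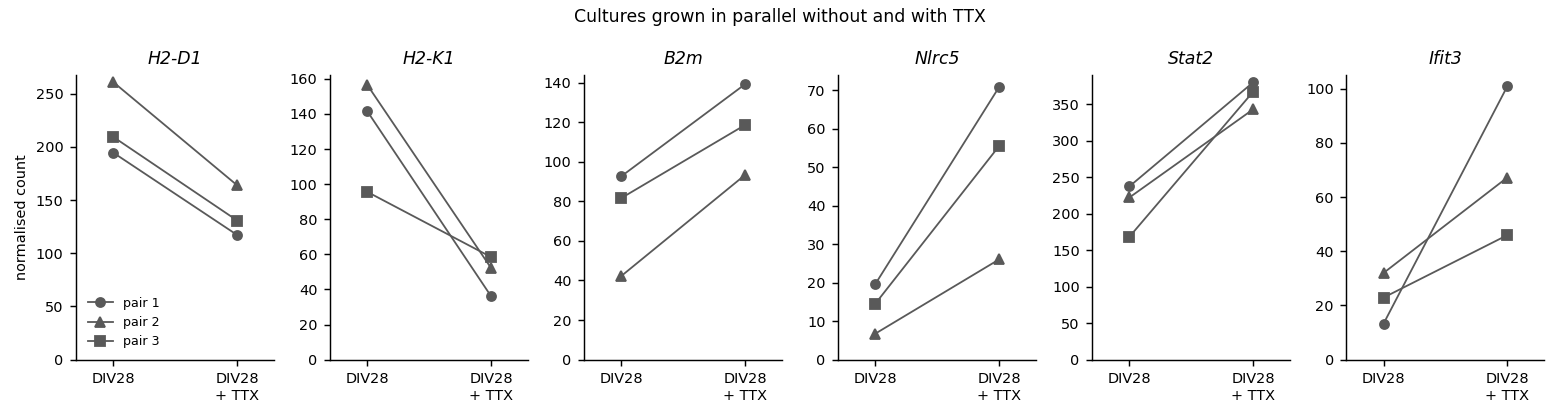
Normalised counts of 6 of the 9 genes in DIV28 cultures without and with TTX, with a line joining the cultures grown in parallel (3 pairs, 1 symbol each) and a vertical axis from 0 in each panel. In all 3 pairs H2-D1 and H2-K1 are lower with TTX and B2m, Nlrc5, Stat2 and Ifit3 are higher.

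Motor neurons in culture were then set against tissue in 1 fit of 25 libraries without TTX (15521 genes, 7 of the 9 genes tested). Ifit3 passed the filter through DIV7 alone and Bst2 through E13.5 alone. H2-K1 passed through E10.5, DIV0, DIV7 and DIV28, and B2m through E10.5, E13.5, P4, DIV7 and DIV28. In every comparison of this fit, counts over the 7 genes therefore describe them and support nothing. At the start, DIV0 had far more H2-K1 (152 and 118) than E13.5 (13.8 and 12.4) and far less B2m (5.23 and 4.59 against 193 and 302). The differences were log2 3.34 ± 0.43 and -5.65 ± 0.53 (adjusted p = 9.8e-07 and 1.2e-08). Stat2 was also higher at DIV0 by 1.72 ± 0.28 (adjusted p = 1.9e-05), and Bst2 was lower, 74.4 times over 179 against 1 count (95% counting interval 13.2 to 2960), a call lost without DIV0 replicate 1. These 4 calls of 7 stand beside 39.4% of all genes, and the vessel markers of E13.5, which DIV0 lacked, moved with B2m and Bst2. The part of those cells was not tested.

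At the mature stage DIV28 exceeded P21 in H2-K1, B2m and H2-D1. H2-K1 was higher by log2 4.47 ± 0.42 (adjusted p = 2e-08), B2m by 2.97 ± 0.40 (2.6e-06) and H2-D1 by 1.87 ± 0.26 (4.1e-06), and no DIV28 library overlapped a P21 library for any of the 3. Ifit3 was higher by 2.85 ± 0.70 (0.0017), a call lost without P21 replicate 1 or 3 or DIV28 replicate 2 (2.27 to 3.07). Stat2 differed by 0.71 ± 0.22 (0.011), under 2-fold, and Irf9 by 0.11 ± 0.23 (0.73). In TPM the H2-D1 difference was smaller (4.82 ± 0.412 at P21 and 7.67 ± 2.19 at DIV28) and that of Stat2 had the opposite sign (8.45 ± 2.58 and 5.41 ± 2.07). Irf9 in TPM was lower in all DIV28 libraries (3.67 to 4.38) than in all P21 libraries (8.65 to 9.92). The 4 calls of 7, again only a description, stand beside 26.3% of all genes, and leaving out the library titled DIV0 replicate 3 kept the same number of calls. The endothelial and microglial sums at DIV28 (340.5 to 782 and 111 to 153) were above those at P21 (39.2 to 90.0 and 58.7 to 77.4). At DIV28 the endothelial sum came mainly from Flt1 and Ly6c1, and Cldn5 was at 0. The part of other cells was not tested.

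The change over time itself differed between culture and tissue for 5 of the 7 tested genes, by an interaction of DIV0 to DIV28 with E13.5 to P21 (adjusted p under 0.05), as it did for 63.4% of all genes. B2m rose in culture while it fell in tissue, a difference of log2 8.62 ± 0.66 (adjusted p = 6.7e-10). For H2-D1 the difference was 2.79 ± 0.40 (adjusted p = 3.3e-06), again higher in culture. Irf9 also differed toward culture (1.19 ± 0.38, adjusted p = 0.0085), and Stat2 the other way (-1.01 ± 0.35, adjusted p = 0.017). Ifit3 passed as well (adjusted p = 0.0021), on 1 count at DIV0. H2-K1, at 1.13 ± 0.62 (adjusted p = 0.12), did not pass. With E10.5 in place of E13.5 as the tissue start, added after the data were seen, 3 of the 7 passed: B2m (6.49), H2-K1 (3.98) and H2-D1 (1.96). That start sets whole cells against nuclei of another mouse line and of fewer cord regions, which cannot be told apart from age.

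The other genes of these pathways were taken from lists of 20 antigen presentation, 27 interferon signalling and 36 interferon-stimulated genes. A list gene was tested if it reached 5 CPM in all replicates of some group of the fit. Genes low elsewhere entered through the group where they were high, so counts and medians over list genes describe them and support nothing. From E10.5 to E13.5, where 44.1% of all genes were called, 15 of 21 tested interferon-stimulated genes rose and none fell (median log2 3.63 against 0.13 for all genes, and 3.48 with genes at 0 in a group set to their bound), among them Gbp3, Rtp4, Parp14 and Oasl2. In signalling 11 of 17 rose and 3 fell, with Tlr3 up by 6.94 ± 0.68 and Ddx58 by 3.70 ± 0.38, and Socs3 down at -3.26 ± 0.53. In antigen presentation 3 of 10 rose (Psme1, Erap1, Pdia3) and H2-Q7 fell. From E13.5 to P4, 4 of 21 interferon-stimulated, 2 of 17 signalling and 5 of 10 antigen presentation genes fell and none rose, against 42.7% of all genes called in either direction, so that the first 2 shares were below that of all genes. From P4 to P13 (13.3% of all genes) 7 of 21, 3 of 17 and 1 of 10 fell and H2-T22 rose (1.37 ± 0.27). The endothelial sum rose and fell over the same ages, and its part was not tested. From P13 to P21 (7.3% of all genes) Psme1 (-1.90 ± 0.23), Pdia3 (-1.05 ± 0.19) and the interferon gamma receptor gene Ifngr1 (-1.02 ± 0.24) fell and Tyk2, a kinase of the receptor, rose (1.27 ± 0.21). From P21 to P56 no list gene was called. At 2 years, against P21 and P56 (1.04% of all genes), the calls were H2-Q4 (3.33 ± 0.84, adjusted p = 0.058), a class I gene, and Parp9 (1.71 ± 0.40, adjusted p = 0.039), an ADP-ribosyltransferase.

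From DIV0 to DIV7, where 11.2% of all genes were called, 6 of 13 interferon-stimulated genes rose, among them Dtx3l, Ifi27 and Herc6, and 4 of 14 signalling genes rose: Socs3 (5.02 ± 0.37), Jak1 (3.88 ± 0.34), Ifngr2 (2.62 ± 0.40) and Jak2 (1.17 ± 0.25). None of 9 antigen presentation genes was called. From DIV7 to DIV28 (7.7% of all genes) only Mx2 rose (5.28 ± 0.87) and Jak1 fell (-1.19 ± 0.27). With TTX none of the 36 tested genes of the 3 lists was called in the unpaired fit (0.683% of all genes) or with the block alone (1.98%). At such shares a count of none supports nothing. With the block and no filter (1.87%), 1 of 20 antigen presentation genes was lower and 1 of 36 interferon-stimulated genes was higher. No signalling gene was called there. At DIV28 against P21, where 26.3% of all genes were called, 7 of 23 interferon-stimulated genes were higher and 1 lower, 5 of 17 signalling genes were higher and 3 lower, and 5 of 11 antigen presentation genes were higher and 1 lower.

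Accessible chromatin was present at most of these promoters throughout. A peak lay within 500 bases of the start site in all 22 ATAC libraries for H2-D1, H2-K1, B2m, Nlrc5, Stat2 and Irf9, in 16 for Ifit3, in 17 for Bst2 and in none for Isg15. In all, 165 of 198 gene and library pairs (83.3%) had a peak, where 47.3% to 54.9% of 27025 start sites had one in a library. At B2m the fold enrichment of the peak was 31.7 and 19.6 at E13.5, 16.1 and 15.9 at P21, 15.6 and 15.7 at DIV0 and 15.4 and 11.1 at DIV28, so that the promoter was accessible in P21 and DIV0 nuclei with few B2m reads. H2-K1, whose RNA was scarce at P21, had peaks of 10.6 and 11.1 there and 16.6 and 12 at DIV28. With TTX they were 12.8 and 10.53. Stat2 had the highest median enrichment (15.5), with values from 6.25 to 40.5 that lay above 91.8% to 99.6% of the peaks of a library.

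At Ifit3 no peak was found at E10.5, P4 or DIV0, in either library. It had peaks of 7.08 and 9.60 at DIV7, 6.73 and 5.86 at DIV28 and 7.72 and 5.61 with TTX, beside 3.75 and 4.32 at P21 and 4.07 and 5.0 at 2 years. Peak and RNA did not always go together: P4, with no peak, held 16.8, 2.26 and 16.2 Ifit3 counts, more in 2 of its 3 libraries than any library of P21 or 2 years. Bst2 had peaks in both libraries at E10.5, E13.5, 2 years and all culture groups. Isg15 had a peak in 5 libraries with a window of 2000 bases. Fold enrichment was called per library by the authors, with no scaling between libraries, so these values are set side by side and not tested.

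**Figure D4:**
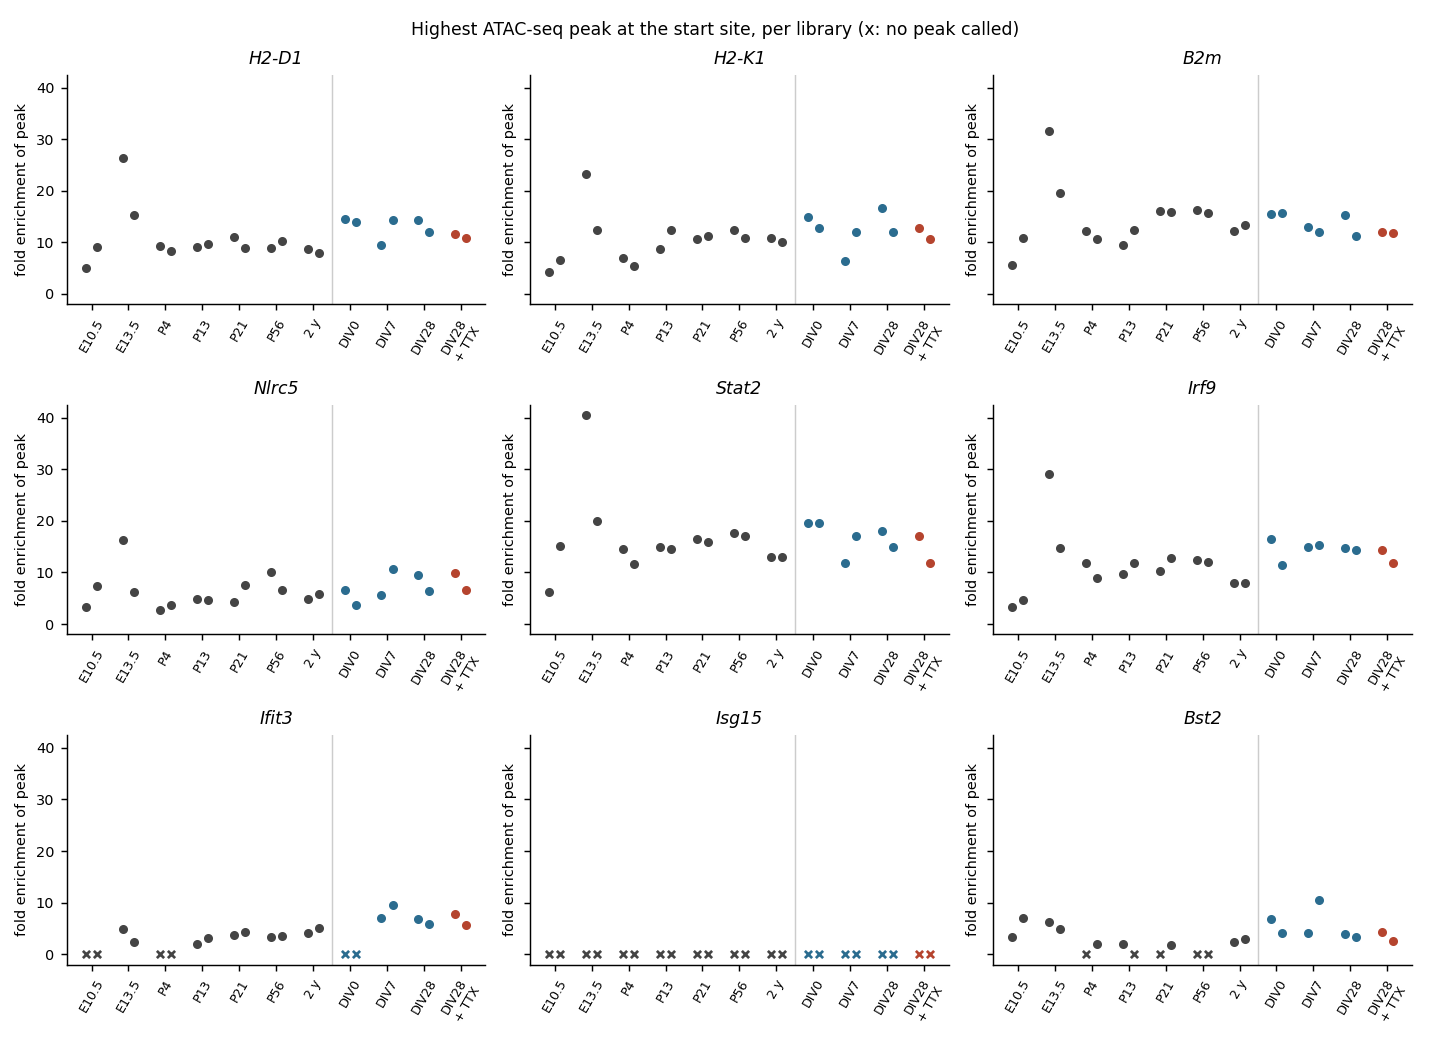
Fold enrichment of the highest ATAC-seq peak within 500 bases of the start site of each gene (9 panels, common axis), with 1 point per library, 2 libraries per group, and a cross at 0 where no peak was called. Crosses fill the Isg15 panel and mark both libraries of E10.5, P4 and DIV0 for Ifit3, while Stat2 reaches 40.5 at E13.5.

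Genes whose levels ran most like those of the members were sought over the 11 group means of log2 levels among 14201 genes, as a description. Most like B2m were Rgs19 (r = 0.977), Shisa5 (0.975), Cd81 (0.969), Lamb1 (0.966) and Smox (0.966). Of these Shisa5 is also on the interferon-stimulated list and Lamb1 encodes a laminin chain of basement membranes. Most like H2-D1 were Med10 (0.913), Med7 (0.879), Krr1 (0.877), Plk4 (0.865) and Copb1 (0.842), and most like Stat2 were Mdm2 (0.944), Gm5953 (0.924), Dnajb5 (0.914), Rundc3a (0.909) and Dgcr8 (0.909). The 11 points share their libraries, cell makeup and depth between genes.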

How the data were processed

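RNA-seq of 28 libraries and ATAC-seq of 22 were used as deposited. The authors prepared RNA libraries with the SMARTer Stranded Total RNA-Seq Pico kit and, per the submitters' processing notes and the methods, aligned them with STAR 2.5.2b to mm10 and quantified them with RSEM 1.3.0 at default parameters, which do not use strand, so sense and antisense reads cannot be told apart. The deposited RSEM tables give expected counts and TPM per gene and library. For ATAC-seq the authors aligned reads with BWA and called peaks per library with MACS2 2.2.7.1. The deposited peak lists give a fold enrichment (a ratio of pileup to local background) and −log10 p and q values.

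Expected counts were rounded and tested with edgeR 4.0.16 (glmQLFit and glmQLFTest, TMM factors, R 4.3.3) after a filter that asked for 5 CPM or more in all replicates of some group, in fits of 18 in vivo, 10 in vitro or 25 libraries. A call needed p under 0.001 and at least 2-fold, and the interaction adjusted p under 0.05. Standard errors are the log2 fold change over the square root of F. Normalised counts divide expected counts by median-of-ratios size factors over 28 libraries. Intervals and floors cover counting error only. Depth was 2704682 to 21823500 counts, so genes under about 10 counts are measured coarsely. The scripts were tested on simulated data. The members, lists and tests were chosen with earlier results of these data known. All members were named, and from each list at most 4 called genes per comparison. Replicates are pooled animals or separate cultures. TTX and untreated cultures of 1 number were grown in parallel per the study's tables, and their deviations from the group means correlated at 0.56, 0.49 and 0.65. Other same-numbered samples correlated at -0.12 to 0.13 and were not treated as pairs. Gene positions came from GENCODE vM21 and promoters from RefSeq (GRCm38.p6, the mm10 assembly). Alternatives were another scaling, no filter, DESeq2 1.42.0, adjusted p limits, only the compared libraries, a replicate block and leaving out each replicate.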

Additional observations from a re-analysis of the deposited data

Results flagged for a closer look

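The change from DIV0 to DIV28 in culture differed from the change from E13.5 to P21 in tissue for 5 genes, by the interaction term of edgeR's quasi-likelihood test over 15521 genes (adjusted p under 0.05, met by 63.4% of all genes). The difference, culture minus tissue on the log2 scale, was 8.62 for B2m (adjusted p = 6.7e-10), whose 2 E13.5 libraries stood at 193 and 302 counts and whose DIV0 libraries at 5.23 and 4.59. It was 2.79 for H2-D1 (adjusted p = 3.3e-06), 1.19 for Irf9 (0.0085) and -1.01 for Stat2 (0.017). For Ifit3 it was 5.54 (0.0021), a value that rests on 1 count at DIV0 and depends on the prior count of the fit. Leaving out E13.5 replicate 1 (-0.88) or P21 replicate 1 (-0.82) ended the Stat2 call, and leaving out E13.5 replicate 2 ended that of Irf9 (0.70). With E10.5 as the tissue start, a choice made after seeing the data, B2m (6.49) and H2-D1 (1.96) were among the 3 genes called, while Irf9, Stat2 and Ifit3 were not. At E10.5 preparation, mouse line and cord region differed from P21 as well as age.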

How the results depend on the processing

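Counts of called members moved by over 1.5 times under these alternatives. Without the filter on low counts they were 5 from E10.5 to E13.5 (3 otherwise), 4 from E13.5 to P4 (2), 2 over P4 to P13 (1) and 1 from P56 to 2 years (0). DESeq2 gave 4 from E13.5 to P4, 2 over P4 to P13, 1 from P56 to 2 years and 2 from DIV7 to DIV28 (1). An adjusted p limit gave 2 from P4 to P13, 2 from DIV7 to DIV28 and 0 with TTX (1), and a fit of only the compared libraries gave 0 with TTX. E10.5 in place of E13.5 gave 3 in the interaction (5). The cause of these moves was not tested beyond the fewer or more genes and libraries in each fit.

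Leaving out 1 library at a time gave 0 to 4 from E13.5 to P4, 1 to 2 over P4 to P13, 0 to 2 from P13 to P21, 0 to 1 from P21 and P56 to 2 years, 1 to 3 from DIV0 to DIV7, 0 to 1 from DIV7 to DIV28 and 0 to 1 with TTX. P4 replicate 3 decided P4 to P13, where H2-K1 was called without it (-2.002). Without E13.5 replicate 1, Irf9 was also called from E10.5 to E13.5 (1.31), H2-D1 and Irf9 from E13.5 to P4 (-1.41 and -1.27) and both from E13.5 to DIV0 (-1.22 and -1.38). Without P21 replicate 1, Irf9 was called from E10.5 to P21 (1.10). DIV0 replicate 2 decided DIV0 to DIV7, where 1 member was called without it.

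With the pairs as a replicate block the TTX comparison had 1 called member and 255 called genes against 88 unpaired, and 3 members and 571 genes with the block and no filter. DESeq2 called 187 and an adjusted p limit 27. The block changed no other count of called members. The group with the highest level was the same in TPM and normalised counts for 4 of 9 members (B2m, Irf9, Isg15, Bst2). Median-of-ratios scaling moved the median of all genes by 0.11 (log2) upward from E10.5 to E13.5 and by -0.11 from E13.5 to P4. All 600 values of single genes under the alternatives kept the sign of the 51 reported ones. Most of the 51 were picked by an adjusted p under 0.05 in the main fit, and Bst2 was left out. The kept sign therefore supports nothing. A level of a few counts, as for Nlrc5, Ifit3, Isg15 and Bst2 in adult tissue, cannot show a difference of a few fold at this depth.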

Other observations

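The ratio of H2-D1 to H2-K1 counts within a library was 0.937 to 2.19 in the 10 libraries of E10.5, DIV0, DIV7 and DIV28, 2.24 to 3.25 in the 3 TTX libraries, and 3.72 to 57.0 in the 15 tissue libraries from E13.5 to 2 years. The sets place E10.5 tissue beside cultures and follow no grouping fixed beforehand, so the gaps between these 3 ranges support nothing. The ratio of 57.0 rests on 1 H2-K1 count in P56 replicate 3. In TPM the sets were not kept apart. There H2-D1 was below H2-K1 in TTX replicate 3 (3.46 and 4.51) but above it in DIV28 replicate 3 (5.85 and 5.36). The E10.5 embryos were of the HB9-GFP line, while tissue from E13.5 on and the cultures carried Chat-Cre;SUN1-GFP. The part of mouse line in the ratio was not tested.

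H2-Q7, another class I gene, stood at a mean of 73.0 counts at E10.5 and 50.4 at DIV0, and at most 4.16 in the means of the tissue groups from E13.5 on. It was 14.3 at DIV28 and 2.95 with TTX.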
